A study of Gallus gallus with 6 samples.

Results

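The genes described here encode the proteins of the mitochondrial ribosome, and they were taken as every row of the expression table whose gene name starts with MRPL or MRPS followed by a digit. The table held 62 such rows under 61 names, of 14078 rows in all, of which 1934 carried no gene name. MRPS16 stood on 2 rows. RNA-Seq was done on the liver of 6 Lushi chicken hens, a Chinese domestic breed that lays green-shelled eggs. The L20 group held 3 juvenile hens of 20 weeks and the L30 group 3 laying hens of 30 weeks, all raised in cages under 1 environment with free access to feed, untreated and with 1 library per hen. Age and laying state changed together between the groups, so they cannot be told apart. The design compared juvenile with laying liver, and the question asked here was whether the mitochondrial ribosomal protein genes differed between these stages.

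Mitochondria keep a small genome of their own, and the few proteins it encodes, all of them components of oxidative phosphorylation, are made on a separate ribosome inside the organelle. Its ribosomal RNAs are transcribed in the mitochondrion, while its proteins are encoded in the nucleus, made in the cytosol and imported. The small subunit binds the mRNA and decodes it, and the large subunit joins the amino acids. Many of its proteins descend from those of bacterial ribosomes, and the others are found only in mitochondria. Hepatocytes, the main cells of the liver, are rich in mitochondria.

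By the roles known for their mammalian counterparts, 37 of the 62 genes encode large subunit proteins, and 24 encode small subunit proteins. MRPS30 and MRPS18A count among the large subunit in spite of their names. The last, MRPS36, is now known as a component of the 2-oxoglutarate dehydrogenase complex of the citric acid cycle and was kept apart. A homologue in the bacterial ribosome is known for 38 of the 62, and 24 are specific to mitochondria.

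The libraries held 13764705 to 21570330 reads on genes, as recovered from the deposited scaled counts, and 12911 to 13376 genes had an FPKM above 0. FPKM is the fragment count of a gene scaled for the length of its exons and for the library. The 62 genes took 16617 to 27841 reads per hen, with a median of 288.5 reads per gene and hen and a range of 11 to 4298. Of the marker genes of other liver cells, all 4 macrophage genes found were lower in L30 at an unadjusted p of 0.05 or less, and their summed FPKM was 330 to 493 in L20 and 170 to 236 in L30. The same held for 3 of 4 endothelial genes, with sums of 60.3 to 72.0 against 26.6 to 46.3, and for 2 of 3 T cell genes tested, with 26.5 to 30.6 against 18.4 to 19.3. For stellate cells and fibroblasts it held for 2 of 4, and their sums of 78.3 to 97.9 against 63.4 to 85.5 overlapped. Of all genes tested, 11.7% were lower at that threshold. No marker tested of cholangiocytes (KRT19), erythroid cells (HBAA and HBAD) or B cells (BLK) was called, and the sums of these lists overlapped. Their log2 fold changes were −0.17 for KRT19, 0.02 for HBAA, 0.22 for HBAD and 0.86 for BLK. The 5 hepatocyte genes summed to 30529 to 34823 in L20 and 21736 to 30064 in L30, with ALB higher and APOA1 and FGB lower in L30. TTR and SERPINC1 were not called, with log2 fold changes of 0.17 and 0.12, so 3 of the 5 were positive. The part of these differences in the results on mitochondrial ribosomal proteins was not tested. In bulk liver, fewer cells of a type and less RNA per cell cannot be told apart.

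All 62 genes were expressed in the liver of every hen. Their mean FPKM over the 6 hens ranged from 1.61 to 225 with a median of 16.2, against a median of 6.62 over the 9732 genes tested, whose mean FPKM had to reach 1. All 62 passed that filter, and 53 of them lay above the median of the genes tested. Most levels were close together, with 50 genes between 5 and 40 FPKM. Of the others, 8 lay under 5 FPKM and 4 over 40 FPKM. The highest of all was MRPS6 at 225 FPKM, followed by MRPL9 at 72.4, MRPS21 at 46.6 and MRPS17 at 42.1 FPKM. This order was not that of the reads, with 96 to 187 per hen for MRPL9 and 577 to 866 for MRPS17. The genes also varied little between hens. The median SD within a group was 0.156 on the log2(FPKM + 1) scale, against 0.210 for the genes tested. That comparison was not matched for expression level, which was higher in the 62 genes.

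**Figure D1:**
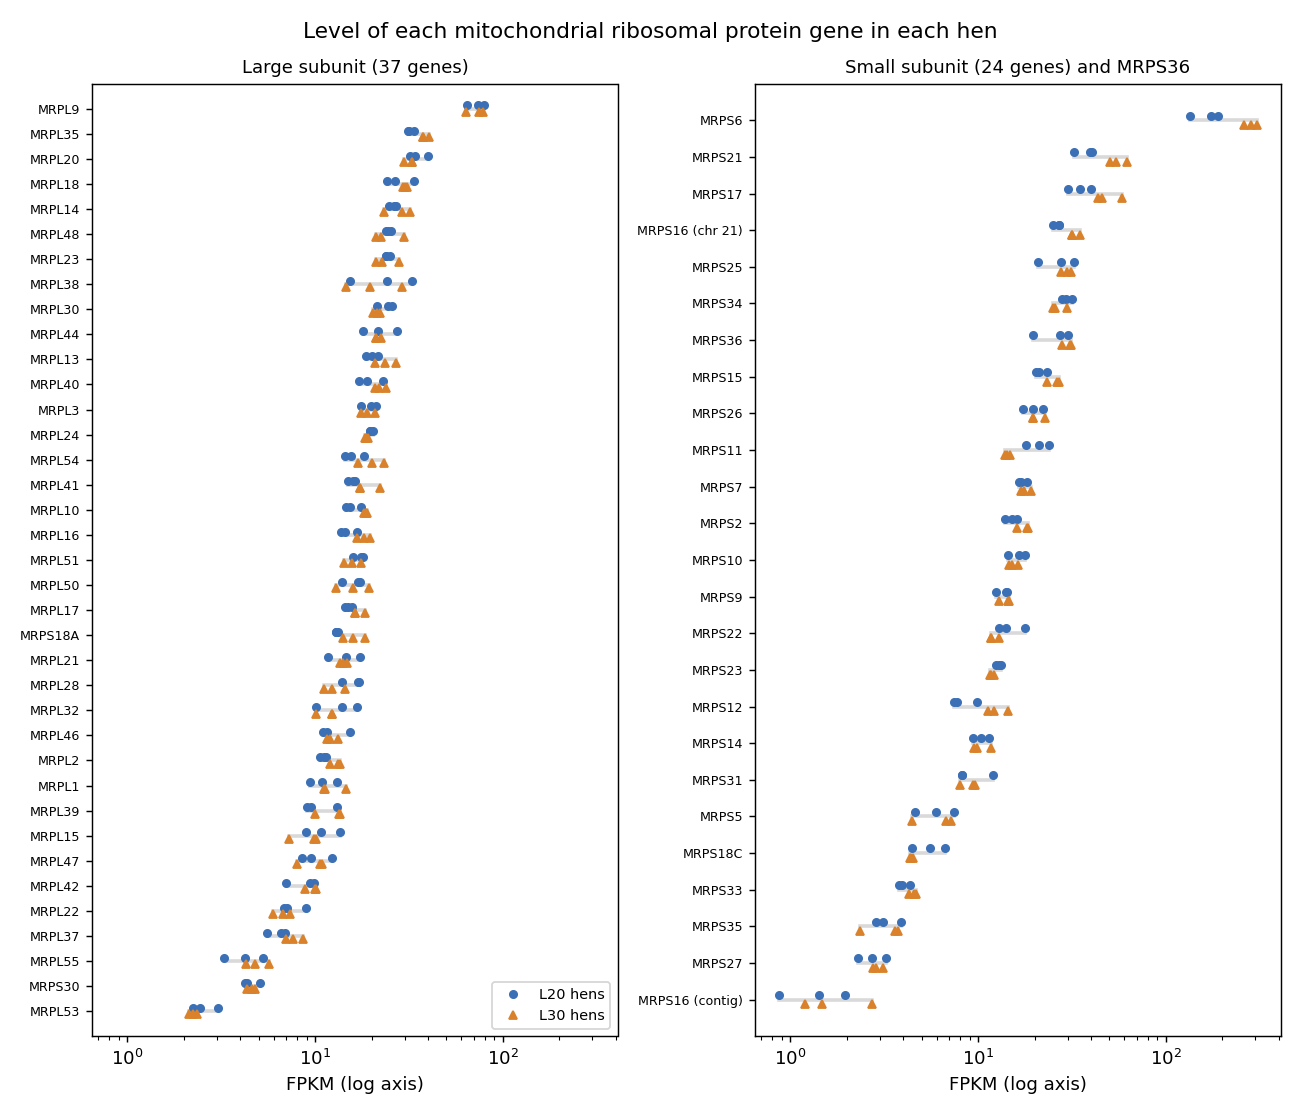
FPKM on a log axis for each mitochondrial ribosomal protein gene in each of the 6 hens, ordered by mean level within the large and small subunit, with circles for L20 and triangles for L30. Most genes lie between 5 and 40 FPKM, and MRPS6 stands above all others, with 135 to 189 FPKM in L20 and 262 to 304 FPKM in L30.

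In the main fit by limma on the deposited FPKM, the genes that differed at the unadjusted threshold all belonged to the small subunit. MRPL35 of the large subunit was near it, with an unadjusted p of 0.0675 by limma, and was called under some other settings. In L30 against L20, 5 genes were higher at an unadjusted p of 0.05 or less by limma, namely MRPS6, MRPS21, MRPS12, MRPS17 and MRPS16 of chromosome 21. Those 5 were 8.06% of the 62, while 11% of the genes tested were called higher. The 1 gene called lower was MRPS11, which was 1.61% of the 62, while 11.7% of the genes tested were called lower. Thus with limma on the deposited FPKM the share called was below that of all genes in either direction. None of the 62 reached a Benjamini-Hochberg adjusted p of 0.05 over all genes tested, where 3.4% of the genes did so, and the smallest adjusted p was 0.0746 by limma. On recovered reads, edgeR with TMM likewise called 0 of the 62 after adjustment, against 4.87% of its genes. At the unadjusted threshold it called 10 of the 62 higher (16.1%, against 13.1% of its genes) and 1 lower (1.61%, against 10%), so that its share of higher genes was above that of all genes. With DESeq2 size factors edgeR called 9 higher (14.5%, against 12.5%) and 1 lower (against 10.3%), and again 0 after adjustment (against 4.63%). DESeq2 called 6 higher (9.68%, against 10.9%) and 1 lower (against 8.66%), and 2 after adjustment (3.23%, against 11%), MRPS6 with an adjusted p of 0.00274 and MRPS21 with 0.0342. No gene met the rule of an adjusted p of at most 0.05 with a ratio of 2 or more, or of 0.5 or less.

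The direction of the small differences depended on how the libraries were scaled. The median log2 fold change of the 62 genes was 0.07 with median-ratio scaling, 0.10 by edgeR with TMM and 0.09 by DESeq2. It was −0.02 with upper-quartile scaling and with quantile normalization. With the deposited FPKM, the median log2 fold change of the 62 genes was 0.05, with 34 positive and 28 negative values, and that of all genes tested was −0.04. When FPKM was instead scaled to all recovered reads of a library, the median over all genes moved by −0.22, to −0.26, and that of the 62 genes became −0.21, still above that of all genes. Under that scaling 12 of the 62 were called lower (19.4%, against 28.9% of all genes) and 1, MRPS12, higher (1.61%, against 5.21%). Over all genes 2817 were then called lower and 507 higher, against 1143 and 1070 with the FPKM as deposited. MRPS11 had an adjusted p of 0.0290 by limma under that scaling, where 7.07% of all genes had one of at most 0.05. Quantile normalization ended the calls of MRPS16, MRPS17 and MRPS21, and upper-quartile scaling that of MRPS16.

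On the deposited FPKM small differences can be bounded, though the intervals leave out the choice of scaling. For 60 of the 62 genes (96.8%), the 95% interval of the log2 fold change lay within −1 and 1, which held for 74.1% of all genes tested. The exceptions were MRPS6, with an interval of 0.34 to 1.22, and MRPL38, with one of −1.01 to 0.65. After scaling to all recovered reads MRPS11 had a log2 fold change of −0.77 with a standard error of 0.13. That of MRPL38 was then −0.44 with a standard error of 0.38. The ratio of mean FPKM lay between 0.8 and 1.25 for 54 genes (87.1%), against 54.6% of all genes. Neither share over all genes was matched for expression level. The fitted log2 fold changes ran from −0.52 for MRPS11 to 0.78 for MRPS6, and 55 of the 62 were under 0.3 in size.

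**Figure D2:**
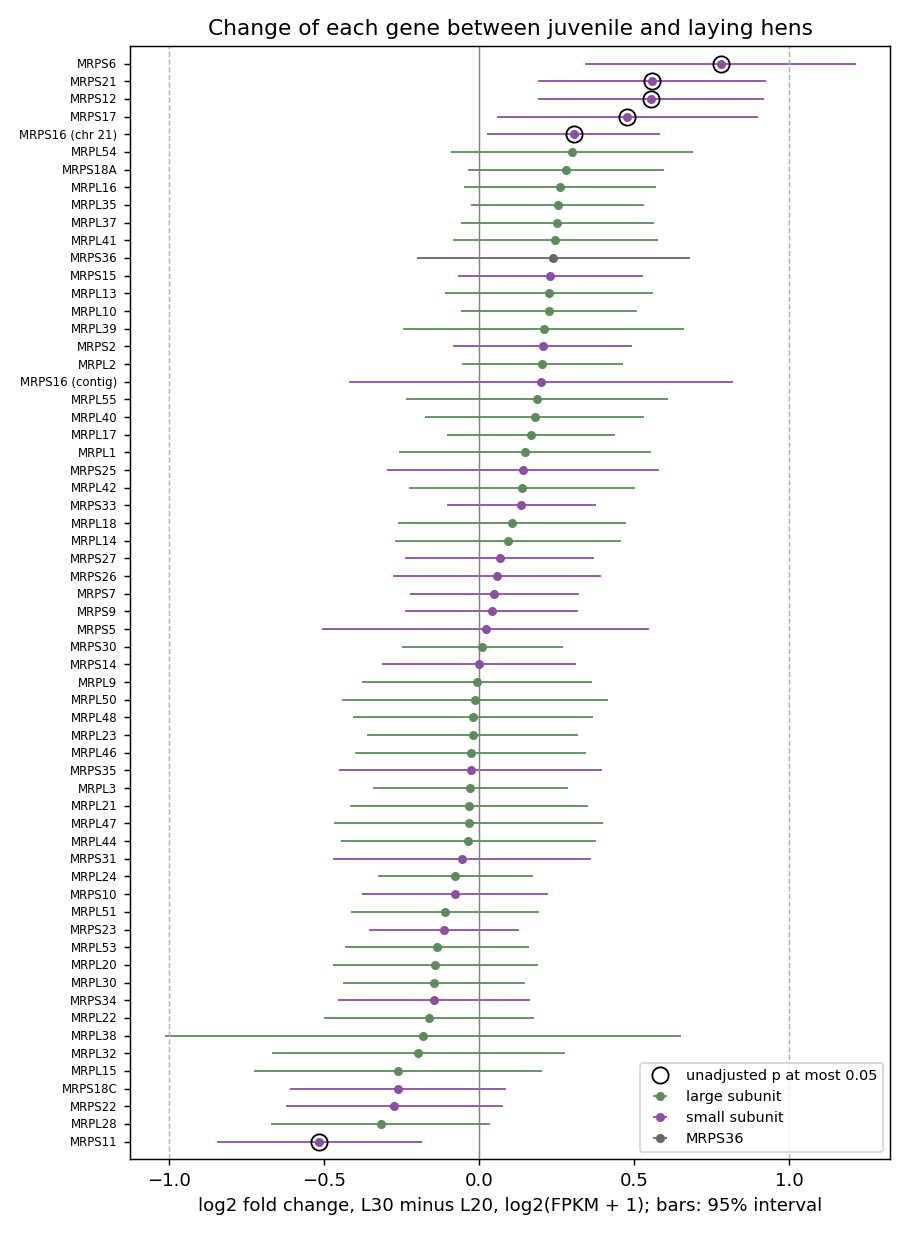
Log2 fold change of L30 against L20 with its 95% interval from limma for each mitochondrial ribosomal protein gene, ordered by size and coloured by subunit, with circles around genes of an unadjusted p of at most 0.05. With the FPKM as deposited, 5 small subunit genes lie to the right and MRPS11 to the left, and most intervals cross 0. Scaling to all recovered reads moves the median of the 62 genes to −0.21.

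MRPS6, the counterpart of bacterial S6 in the small subunit, had the largest difference. Its gene lies on chromosome 1 from 105063861 to 105075638 (galGal4). Its FPKM was 175, 135 and 189 in the L20 hens and 304, 285 and 262 in the L30 hens, so every laying hen was above every juvenile hen. The mean was 166 ± 28.3 (SD, n = 3) in L20 and 284 ± 21.5 (SD, n = 3) in L30, a ratio of 1.71. The log2 fold change was 0.78 with a standard error of 0.18, with an unadjusted p of 0.00444 and an adjusted p of 0.0746 by limma. It rested on 1970 to 4298 reads per hen, more than any other of the 62 genes. Over 19 alternative settings, which are given in the closing section, the log2 fold change stayed between 0.49 and 0.88 and the adjusted p of limma, edgeR or DESeq2 between 0.00274 and 0.197.

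MRPS21, the counterpart of bacterial S21, had the next largest log2 fold change in the main fit, close to that of MRPS12. By the ratio of means MRPS12 was ahead, at 1.52 against 1.48. The gene is on chromosome 25 from 1561763 to 1563334. The L20 hens had 39.6, 32.5 and 40.3 FPKM and the L30 hens 62.1, 50.4 and 54.3 FPKM, without overlap. Its ratio was 1.48, with means of 37.5 ± 4.33 and 55.6 ± 5.97 (SD, n = 3 in each), and its log2 fold change was 0.56 with a standard error of 0.15 (limma, adjusted p = 0.1003). Between 143 and 321 reads per hen stood behind these values.

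MRPS12 is the counterpart of bacterial S12, a protein at the decoding site of the small subunit, and its gene lies on an unplaced scaffold from 58850 to 59696. Its level was low, with 7.40, 9.82 and 7.68 FPKM in L20 and 12.2, 14.3 and 11.3 FPKM in L30, from only 58 to 112 reads per hen. Again the groups did not overlap. The ratio of the means, 8.30 ± 1.32 and 12.6 ± 1.55 (SD, n = 3 in each), was 1.52, and limma gave a log2 fold change of 0.56 with a standard error of 0.15 and an adjusted p of 0.0990. MRPS12 was the gene that stayed higher at the unadjusted threshold under every one of the scalings tried, including that to all recovered reads.

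MRPS17, the counterpart of bacterial S17, lies on chromosome 19 from 4848690 to 4851368. It had 34.8, 30.2 and 39.9 FPKM in L20 and 43.4, 58.2 and 45.9 FPKM in L30. The highest juvenile and the lowest laying hen were close, and the second L30 hen stood well above the others. The log2 fold change was 0.48 with a standard error of 0.17 (limma, adjusted p = 0.179), and the unadjusted p of 0.0318 passed 0.05 no longer when the first L20 hen, the second L20 hen or the second L30 hen was left out, with log2 fold changes from 0.35 to 0.57 over the fits without 1 hen.

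MRPS16, the counterpart of bacterial S16, stood on 2 of the 62 rows. The row on chromosome 21 shares its locus, from 171133 to 212641, with an unnamed gene. It had 25.2, 26.8 and 26.8 FPKM in L20 and 31.5, 31.8 and 34.9 FPKM in L30, with tight groups that did not overlap and a log2 fold change of 0.31 with a standard error of 0.12 (limma, adjusted p = 0.189). The unadjusted p of 0.0361 passed 0.05 no longer when any 1 of the 6 hens was left out. The row on an unplaced contig, from 7294 to 8267, had 1.42, 0.872 and 1.95 FPKM in L20 and 1.20, 2.71 and 1.48 FPKM in L30, from 11 to 20 reads per hen. Those groups overlapped. Reads of near-identical copies can be split between such rows, so either value is uncertain.

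MRPS11, the counterpart of bacterial S11, was the gene with the lowest ratio. It is on chromosome 10 from 12663655 to 12667185, and its FPKM was 17.96, 23.94 and 21.21 in the L20 hens and 14.76, 14.24 and 13.98 in the L30 hens. The laying hens lay close together and all below the juvenile hens. Means of 21.04 ± 2.99 and 14.33 ± 0.399 (SD, n = 3 in each) gave a ratio of 0.681, and the log2 fold change was −0.52 with a standard error of 0.14 (limma, adjusted p = 0.0937). The fold change was negative in all 19 alternatives, from −0.77 to −0.42. Only 35 bases after it on the same chromosome starts MRPL46, a large subunit protein specific to mitochondria, which had 11.6, 15.4 and 10.9 FPKM in L20 and 12.01, 13.3 and 11.6 FPKM in L30, and a log2 fold change of −0.03.

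**Figure D3:**
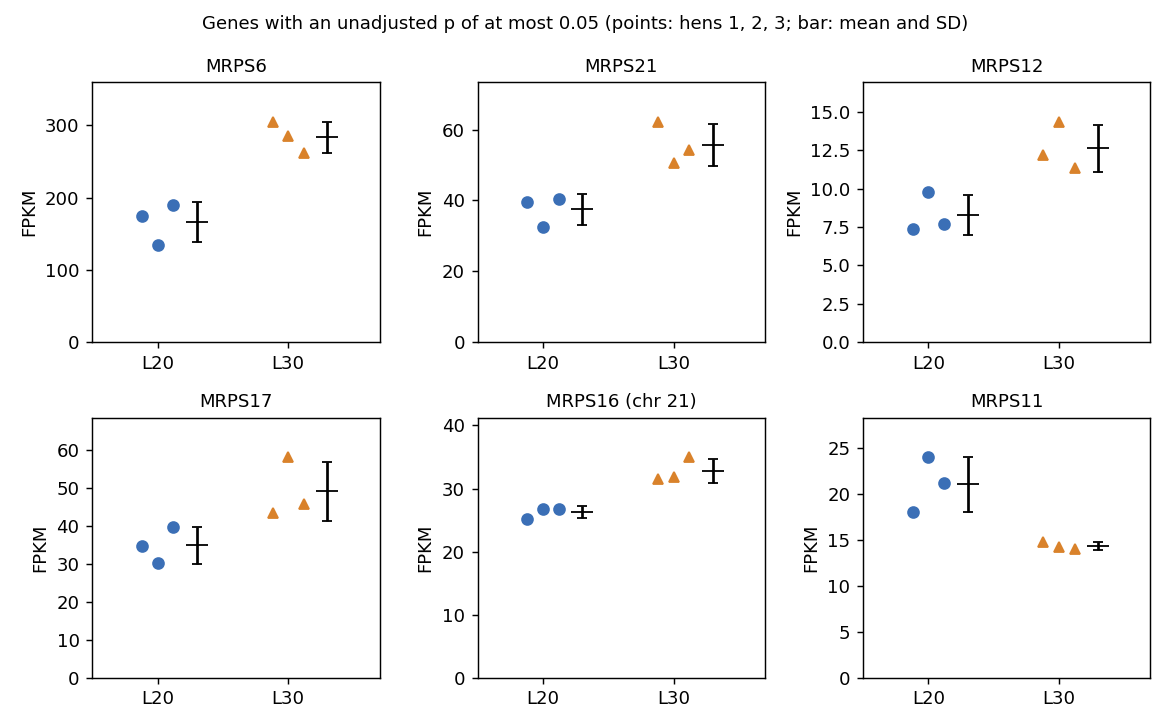
FPKM of the 6 genes with an unadjusted p of at most 0.05 in each hen, with the mean and SD of each group of 3. In each panel the L20 and L30 hens do not overlap: 5 genes are higher in L30, and MRPS11 is lower, from 17.96 to 23.94 FPKM in L20 against 13.98 to 14.76 FPKM in L30.

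An exact two-sided permutation test of each of these 6 genes gave p = 0.1, the smallest that 3 hens against 3 allow. Groups without overlap were found for 13 genes in the higher direction (21% of the 62, against 14% of all genes tested) and for 4 in the lower direction (6.45%, against 16%). Besides the genes above, these were MRPS15, MRPS18A, MRPL2, MRPL10, MRPL17, MRPL35, MRPL37 and MRPL41 on the higher side, and MRPS22, MRPS23 and MRPL24 on the lower side. Of the 8 on the higher side, 6, all but MRPS18A and MRPL37, had a negative log2 fold change between −0.08 and −0.01 when FPKM was scaled to all recovered reads.

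Of the 24 small subunit genes 5 were higher and 1 lower, where limma called 11% of all genes tested higher and 11.7% lower. The small subunit had a median log2 fold change of 0.05, with 15 positive and 9 negative values. Upper-quartile scaling turned this median to −0.02. The 6 genes called in the main fit have a bacterial homologue. Under other scalings limma also called genes specific to mitochondria. MRPS22, MRPS23 and MRPS34 were lower when scaled to all recovered reads, and MRPS22 with upper-quartile scaling. Of the genes with a homologue, MRPS10 and MRPS18C were also lower when scaled to all recovered reads, where 28.9% of all genes were. MRPS18C was lower with upper-quartile scaling and without L20 hen 1 too. Among the 15 small subunit genes with such a homologue the median was 0.20, with 11 positive values, and among the 9 specific to mitochondria it was −0.03, on the deposited FPKM, on which none of the 9 was called by limma. These medians are descriptions, and the difference between the subsets was not tested. Of the small subunit genes specific to mitochondria, MRPS22 had 14.1, 17.7 and 12.96 FPKM in L20 and 11.7, 12.9 and 11.7 FPKM in L30, with a log2 fold change of −0.27 (limma, adjusted p = 0.314). MRPS23 differed by less, with 12.97, 12.4 and 13.3 FPKM against 11.5, 12.2 and 11.8 FPKM.

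Of the 37 large subunit genes, the main fit by limma on the deposited FPKM called none in either direction at the unadjusted threshold. Of all genes tested it called 11% higher and 11.7% lower. The calls under other settings went both ways. Limma called MRPL35 higher without the filter, without the trend in eBayes and with median-ratio scaling. Of all genes, 1242 of 14078, 1096 of 9732 and 1188 of 9732 were then higher. Without L20 hen 2 it called MRPL10 higher, and without L30 hen 3 MRPS18A higher and MRPL28 lower. MRPL28 was lower without L20 hen 1 as well. By edgeR with TMM 5 genes were higher and by DESeq2 1, where 13.1% and 10.9% of all their genes were. After scaling to all recovered reads limma called 6 lower, namely MRPL3, MRPL22, MRPL24, MRPL28, MRPL30 and MRPL32. Under that scaling 28.9% of all genes were called lower. MRPL28 was also lower with upper-quartile scaling and with quantile normalization. The median log2 fold change was −0.01, with 18 positive and 19 negative values between −0.32 and 0.30. It was −0.01 among the 23 with a bacterial homologue and 0.00 among the 14 specific to mitochondria, on the deposited FPKM. Without the second L20 hen the median of the large subunit was 0.11.

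MRPL9, the most abundant of the large subunit genes by FPKM, is the counterpart of bacterial L9 and rested on 96 to 187 reads per hen. FPKM is scaled for exon length, so this rank by FPKM was not a rank by reads. MRPL20, lower by FPKM, had 328 to 597 reads per hen. MRPL9 had 73.7, 79.4 and 64.7 FPKM in L20 and 74.7, 78.7 and 63.5 FPKM in L30. The groups covered nearly the same range, and the log2 fold change was −0.01 with a standard error of 0.15. MRPL35 followed with 31.5, 31.1 and 33.6 FPKM in L20 and 37.7, 40.2 and 37.4 FPKM in L30, without overlap but with an adjusted p of 0.251 by limma. MRPL20 had 40.04, 32.02 and 33.91 FPKM against 29.8, 32.8 and 32.9 FPKM. MRPL18 had 24.3, 33.6 and 26.7 FPKM against 31.0, 30.2 and 29.3 FPKM. In neither did the groups separate.

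The largest standard error on the log2(FPKM + 1) scale belonged to MRPL38, a large subunit protein specific to mitochondria, though with smaller pseudocounts that of MRPS16 of the unplaced contig was larger. MRPL38 had 33.0, 15.3 and 24.3 FPKM in L20 and 14.5, 19.6 and 29.0 FPKM in L30. Its log2 fold change of −0.18 had a standard error of 0.34, more than its own size, and no difference in either direction was detected. MRPS18A, a large subunit protein, was even in the juvenile hens, at 12.96, 13.17 and 12.94 FPKM, and higher in the laying hens, at 15.93, 18.42 and 14.03 FPKM, with a log2 fold change of 0.28 (limma, adjusted p = 0.262). The largest positive value of the large subunit, 0.30, belonged to MRPL54, and the largest negative value, −0.32, to MRPL28, with adjusted p-values of 0.322 and 0.257 by limma. MRPS36 had 30.2, 19.6 and 27.2 FPKM in L20 and 27.97, 31.15 and 30.98 FPKM in L30, and its groups overlapped.

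Some of the genes share their locus in the table with another gene, so that the coordinates are those of the whole locus. MRPL13 stands with MTBP, MRPL22 with GEMIN5, MRPS14 with CACYBP, and MRPS15 with CSF3R and an unnamed gene. MRPS18C stands with HELQ and CCDC98, MRPS7 with MIF4GD, and MRPS16 with another unnamed gene. Strand use in counting was not stated in the sources used here, and reads of overlapping genes may have been split between them. Without MRPS16, which is given above, the log2 fold changes of these 6 genes were −0.26 for MRPS18C, −0.16 for MRPL22, 0.00 for MRPS14, 0.05 for MRPS7, 0.23 for MRPL13 and 0.23 for MRPS15. None had an unadjusted p under 0.1 by limma in the main fit, though MRPL22 and MRPS18C were called lower under other settings.

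MRPS6 took the largest share of the summed level of the set. The summed FPKM of the 62 genes was 1189, 1217 and 1230 in L20 and 1383, 1455 and 1338 in L30, a ratio of 1.15 that became 0.953, with overlapping groups, after scaling to all recovered reads. The large subunit summed to 646, 692 and 645 FPKM against 660, 724 and 658 FPKM, which overlapped, with a ratio of 1.03. After the same scaling the ratio became 0.854 and the groups no longer overlapped, with 702 to 768 in L20 and 608 to 635 in L30. The small subunit summed to 512, 506 and 558 FPKM against 695, 699 and 650 FPKM, without overlap, a ratio of 1.30 that became 1.08, with overlapping groups. Without MRPS6 the small subunit had 337, 371 and 368 FPKM against 391, 415 and 388 FPKM, a ratio of 1.11 without overlap, or 0.921 after that scaling, where the groups again did not overlap. MRPS6 alone made up 13.7 ± 2.33% of the summed FPKM of the 62 genes in L20 and 20.4 ± 1.42% in L30 (SD, n = 3 in each). The ratio of the small to the large subunit sum, which the scaling of a library does not touch, was 0.796 ± 0.0671 in L20 and 1.00 ± 0.0454 in L30, and without MRPS6 it was 0.543 ± 0.0255 and 0.585 ± 0.0106 (SD, n = 3 in each). As a share of all recovered reads, in which long genes weigh more, the 62 genes took 0.146%, 0.128% and 0.136% in L20 and 0.129%, 0.121% and 0.124% in L30.

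**Figure D4:**
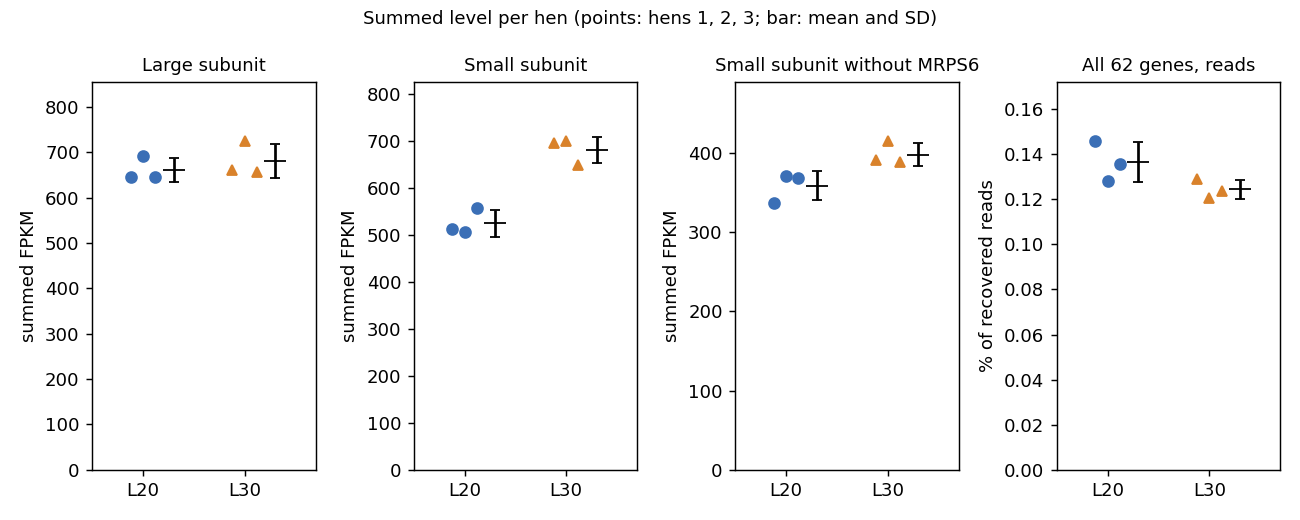
Summed FPKM per hen of the large subunit, the small subunit and the small subunit without MRPS6, and the percentage of recovered reads on all 62 genes, with the mean and SD of each group of 3. With the FPKM as deposited the large subunit overlaps between groups and the small subunit does not; after scaling to all recovered reads this is the other way round, with the large subunit lower in L30 at a ratio of 0.854 and the small subunit overlapping at 1.08.

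The ribosomal proteins of the cytosolic ribosome are given beside the mitochondrial set, and the difference between the sets was not tested. Of 66 cytosolic ribosomal protein genes tested, 43 were higher and 0 lower in L30 at an unadjusted p of 0.05 or less, where 11% and 11.7% of all genes tested were, with a median log2 fold change of 0.41, but only 1 had an adjusted p of at most 0.05 by limma. Their summed FPKM was 16583 to 17681 in L20 and 21565 to 23747 in L30, a ratio of 1.33 that became 1.10 after scaling to all recovered reads. The sum of the 62 mitochondrial genes was 7.10%, 6.88% and 7.42% of the cytosolic sum in the L20 hens and 6.41%, 6.13% and 5.94% in the L30 hens, so that this ratio was lower in each laying hen.

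The templates that the mitochondrial ribosome translates were measured as well. Limma called none of the 12 genes of mitochondrial DNA found, against 11% of all genes tested higher and 11.7% lower. Their median log2 fold change was 0.20, with 10 positive values on the deposited FPKM. The nearest to the threshold was MT-ND1, a subunit of complex I, with 2431, 3014 and 2371 FPKM in L20 and 3471, 4158 and 3200 FPKM in L30, a log2 fold change of 0.47 and an unadjusted p of 0.0507 by limma. The groups of this gene did not overlap, nor did those of MT-ND3, MT-ND5 and MT-CO1. On the deposited FPKM 4 of the 12 were thus without overlap on the higher side and 0 on the lower. Of all genes tested, 14% and 16% were. The summed FPKM of the 12 genes, 121431 to 139707 in L20 and 131488 to 172223 in L30, overlapped. MT-ATP8 took the largest part of that sum by FPKM, with 58256, 68122 and 61628 FPKM in L20 and 79782, 88557 and 61832 FPKM in L30. FPKM is scaled for length, so this part need not be the largest by reads, which were not compared here.

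Further components of mitochondrial translation were counted from lists, beside shares over all genes tested of 11% called higher and 11.7% called lower. Of 6 subunits known under other names 5 were found, and limma called none. All 5 had a negative log2 fold change with a median of −0.09 on the deposited FPKM. DAP3, a GTP-binding protein of the small subunit, had 8.25, 10.2 and 6.19 FPKM in L20 and 6.18, 7.51 and 6.26 FPKM in L30 (limma, adjusted p = 0.461). Of 15 translation factors 10 were found and none was called, with a median of 0.18. GFM1, the elongation factor that moves the ribosome along the mRNA, had a log2 fold change of −0.20, and LRPPRC, which stabilizes mitochondrial mRNAs, one of −0.24. TUFM, TSFM and NRF1 were on the lists but not among the gene names found, so they have no values here. Rows without a gene name could not be matched to the lists.

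Of 20 ribosome assembly genes 15 were found, and 1 was called in each direction. Limma called 11% of all genes tested higher and 11.7% lower. MALSU1, which binds the large subunit during assembly, had 6.13, 8.32 and 7.40 FPKM in L20 and 8.82, 12.03 and 9.84 FPKM in L30, with an adjusted p of 0.180 by limma. FASTKD2, an RNA-binding protein needed for the large ribosomal RNA, had 3.596, 3.17 and 3.12 FPKM against 2.37, 2.74 and 2.39 FPKM, with an adjusted p of 0.176. For either gene the groups did not overlap, and neither passed the adjusted threshold. Groups without overlap were found for 14% of all genes tested on the higher side and 16% on the lower.

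Of 9 genes that transcribe or copy mitochondrial DNA 6 were found and 1 was called higher. Over all genes tested limma called 11% higher and 11.7% lower. The gene called was POLG2, the accessory subunit of the mitochondrial DNA polymerase. It had 5.84, 3.70 and 4.23 FPKM in L20 and 6.76, 7.80 and 6.02 FPKM in L30 (limma, adjusted p = 0.160). TFAM, which packages mitochondrial DNA, had a log2 fold change of −0.18, and POLRMT, the mitochondrial RNA polymerase, one of −0.23. Of 13 genes of import and organelle content 12 were found and 1 was called. It was TOMM20, an import receptor of the outer membrane, with 52.7, 45.0 and 48.5 FPKM in L20 and 59.7, 85.0 and 97.0 FPKM in L30 (limma, adjusted p = 0.121). Of 9 regulators 6 were found, and limma called none. GABPA, a transcription factor known for mitochondrial genes, had a log2 fold change of 0.14, and the coactivator PPARGC1A varied within the groups, with 4.63, 0.900 and 4.96 FPKM in L20 and 0.886, 2.85 and 3.38 FPKM in L30.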

How the data were processed

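Liver RNA was sequenced in 3 L20 and 3 L30 hens, 1 library per hen. The authors isolated mRNA from total RNA with oligo(dT) beads, with a further step to deplete rRNA, and prepared libraries from it. They mapped cleaned reads to galGal4 with TopHat2 2.0.9 (base calling with CASAVA 1.8.2, per the submitters' notes). They assembled with Cufflinks, counted with HTSeq and tested with Cuffdiff. The authors deposited FPKM per gene and hen. The deposited signal beside it is a read count per gene divided by 1 factor per library. Dividing by the value of 1 read gave whole numbers, within 0.02 of a read, for 99.8% to 99.9% of the values under 50 reads, and these recovered reads were used only in alternatives. In 3 libraries 1 or 2 values lay below 1 read. FPKM was proportional to the scaled counts in each hen, so it is scaled by the same factor and not by all mapped reads. This can shift all fold changes together, and a scaling to all recovered reads was therefore added after the values were seen.

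The 9732 genes whose mean FPKM reached 1 were tested with limma 3.58.1 (R 4.3.3) after a log2(FPKM + 1) transformation, and eBayes used a trend. Fold changes are on that scale, which understates changes of low genes. The threshold of the authors' methods, an unadjusted p of 0.05, was kept, and Benjamini-Hochberg adjustment ran over all genes tested. Alternatives changed the pseudocount, filter, scaling, eBayes options, block and tool (edgeR 4.0.16, DESeq2 1.42.0) and left out each hen in turn. The methods were tested on simulated reads in which 100 genes changed 3-fold and 100 changed 1.5-fold, with the same spread for all genes. At an adjusted p of at most 0.05, limma recovered 99 of the 3-fold and 5 of the 1.5-fold changes. By edgeR these were 100 and 24, and by DESeq2 100 and 29. In these simulated reads differences of about 1.5-fold were thus mostly missed after adjustment. Their spread and number of changed genes were not fitted to the measured data, so the recovery there may differ. Starts were counted from 0 in the table and were raised by 1. Intervals cover the spread between hens and not the choice of scaling.

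The genes and lists were chosen with earlier results of these data known. Values are given for genes of unadjusted p of at most 0.05 without overlap (the 8 largest in each direction), all genes of adjusted p of at most 0.05, the 4 most abundant of each subunit, names on several rows, genes sharing a locus, and fixed factors. MRPL2, MRPL3, MRPL10, MRPL17, MRPL24, MRPL28, MRPL30, MRPL32, MRPL35, MRPL37, MRPL38, MRPL41, MRPL46, MRPL54, MRPS10, MRPS18A, MRPS22, MRPS23, MRPS34 and MRPS36, and MALSU1, FASTKD2, POLG2, TOMM20, MT-ND1 and MT-ATP8, were in part or wholly chosen after their values were seen. Promoter and protein sequences were not used here. A gene that shares a locus with one of the 62 is not reported here.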

Additional observations from a re-analysis of the deposited data

How the results depend on the processing

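Depth limited the weakest genes (11 to 20 reads per hen for MRPS16 of the unplaced contig), and 3 hens per group limited all tests. In the main fit on the deposited FPKM, 5 genes were higher and 1 lower. Without the filter, without the trend in eBayes or with median-ratio scaling 6 were higher, MRPL35 among them. Upper-quartile scaling gave 4 lower, against 1511 of all 9732 genes tested, and a small subunit median of −0.016. Quantile normalization gave 2 higher and 2 lower, against 975 and 1166 of the 9732. In edgeR with TMM 10 were higher (16.1%, against 13.1% of its genes), with a small subunit median of 0.12. With DESeq2 size factors edgeR gave 9 higher (14.5%, against 12.5%), and DESeq2 gave a small subunit median of 0.11. After adjustment 0 genes were called by limma and edgeR, with 6 and 11 at the unadjusted threshold, against 2 by DESeq2, MRPS6 (log2 fold change 0.80) and MRPS21 (0.63). Scaling to all recovered reads, chosen after seeing the data, gave 1 higher, 12 lower and 1 after adjustment (MRPS11, −0.77), and medians of −0.21 for all 62, −0.27 for the large and −0.20 for the small subunit. The ratio of the summed FPKM, 1.15, became 0.953 under that scaling and 0.912 as a share of reads. The cause was not tested.

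Without 1 hen, 3 to 5 genes were higher and 1 to 3 lower, the median of the large subunit was −0.018 to 0.11 and the summed ratio 1.12 to 1.17. The lowest count of higher genes, 3, came without L20 hen 1 or without L30 hen 2, and the highest count of lower genes, 3, came without L20 hen 1. Without L30 hen 3, 2 genes were lower. Over all genes tested, scaling moved the calls from 1070 higher and 1143 lower to 1188 and 1027 (median ratio), 858 and 1511 (upper quartile) and 507 and 2817 (all recovered reads). In the fits without 1 hen, 785 to 1158 of all 9677 to 9772 genes tested were higher and 770 to 1123 lower. Of all genes, 331 had an adjusted p of at most 0.05, against 54 with the replicate block, 64 to 425 without 1 hen, 201 with no filter, 688 scaled to all recovered reads, 545 by edgeR with TMM and 1398 by DESeq2.

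Log2 fold changes near 0 turned sign under some settings. With median-ratio scaling MRPL46 had 0.0010, MRPL50 0.014, MRPL9 0.022 and MRPS14 0.026. MRPS7 had −0.020 with upper-quartile scaling and −0.030 with quantile normalization, where MRPL18 had −0.024. Scaling to all recovered reads gave MRPL10 −0.028, MRPL13 −0.030, MRPL17 −0.085, MRPL18 −0.15, MRPL2 −0.043, MRPL35 −0.0072, MRPL41 −0.0076, MRPS15 −0.027, MRPS36 −0.020 and MRPS7 −0.20. edgeR with TMM gave MRPL24 0.0080, MRPL46 0.0061, MRPL50 0.056 and MRPL9 0.11. edgeR with DESeq2 size factors gave MRPL50 0.043 and MRPL9 0.094, and DESeq2 gave 0.041 and 0.096. Without 1 hen the range was −0.46 to 0.067 for MRPL38, −0.12 to 0.11 for MRPL46, −0.15 to 0.12 for MRPL50, −0.086 to 0.082 for MRPL9, −0.081 to 0.063 for MRPS14 and −0.024 to 0.36 for MRPS16 of the unplaced contig.

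The hens share replicate numbers by name only: deviations of same-numbered hens correlated at 0.02, 0.01 and 0.09, and not every hen correlated best with its own number. With the replicate block, 3 genes were higher (MRPS6, MRPS12 and MRPS21) and 1 lower, against 922 and 942 of all 9732 genes tested.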

Other observations

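The nearest gene of the table to MRPS6 was SLC5A3, which encodes a sodium and myo-inositol cotransporter and lies 17434 bases before it on chromosome 1. It had a log2 fold change of 0.66 in L30 against L20, with an unadjusted p of 0.0134 and an adjusted p of 0.116 by limma. GBAS starts 641 bases after MRPS17 and had a log2 fold change of 0.43 with an unadjusted p of 0.0516. SDHB, a subunit of complex II, ends 714 bases before the locus of MRPS16 on chromosome 21 and had one of 0.35 with an unadjusted p of 0.0921. The unnamed gene 190 bases after MRPS12 had a log2 fold change of −0.05. For PAK4, 16462 bases before MRPS12, it was 0.05, and for RPRD2, 2480 bases before MRPS21, it was −0.13. KCNE2, 141922 bases after MRPS6, had 0.41 with an unadjusted p of 0.347 by limma. The neighbours left were MRPL46, given above, and genes under the FPKM filter. Neighbours were read for the 6 genes with an unadjusted p of at most 0.05 only, and whether neighbouring genes changed together was not tested.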
